A study of Rattus norvegicus with 12 samples.

Results

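The genes described here are 10 early response genes of the rat corpus luteum (CL), the ovarian gland that makes progesterone during pregnancy. They are the nuclear receptors Nr4a1, Nr4a2 and Nr4a3 and the early response transcription factors Fos, Fosb, Jun, Junb, Egr1, Ier2 and Atf3. They were taken by symbol from the 14506 genes that the arrays measured with a probe set of 1 gene symbol. For 9 of the 10 such a probe set was found, 1 for each gene. No probe set was named Fosb alone, so Fosb was not measured here.

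CL came from Wistar rats and were studied in 4 groups of 3 rats, with RNA of 1 rat on each of 12 arrays. The day 12 rats had no treatment and were on day 12 of pregnancy. The other 3 groups were on day 16 after 4 days of treatment that began on day 12. VEH rats received the vehicle by mouth, and AI rats received anastrozole, which blocks aromatase and so the making of estradiol (E2), at 1 mg per kg of body weight by mouth daily. AI+E2 rats received the same dose of AI together with 10 µg of E2 per day under the skin. The comparison of AI with VEH asked what changed when E2 was withdrawn, and that of AI+E2 with AI asked what changed when it was given back. The paper also reports higher testosterone after AI, so less E2 and more testosterone cannot be told apart in AI against VEH. In its pilot study, this dose of AI also went with lighter CL and evidence of lost implantations. Lost implantations and a change in E2 therefore cannot be told apart in the comparisons with AI. AI+E2 rats had both agents, so no group had E2 alone. No injection under the skin is clearly described for VEH or AI, so E2 and its injection cannot be told apart. The age of the rats and the time between the last dose and collection are not given in the sources used here.

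Immediate early genes are switched on within minutes of a stimulus, without new protein synthesis, and their mRNAs decay quickly. Many are driven by kinases that act on CREB at the cAMP response element or on SRF and its partners at the CArG box. NR4A receptors are nuclear receptors that work without a known hormone ligand. In the rat CL, Nr4a1 is known as a factor that prostaglandin F2α induces and that raises the gene of the hydroxysteroid dehydrogenase that breaks down progesterone. Fos and Jun proteins pair as the transcription factor AP-1. A single tissue sample taken days into a treatment shows a level at that moment and not the course of the response. The tissue was measured whole, so fewer cells of a type and less RNA per cell cannot be told apart.

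The 250 bases before the start of 3 genes are shown because these genes gave calls in AI+E2 below and carry the core of the cAMP response element. They are from RefSeq on GRCr8, in lower case, with the core TGACG on either strand (CGTCA on the other strand) in capitals. Nr4a1 lies at chr7:134259888-134260137, Junb at chr19:40080876-40081125 and Ier2 at chr19:40399123-40399372, all on the plus strand. The starts used for Nr4a1, and below for Nr4a2 and Fosb, lie inside the annotated intervals of these genes.
Nr4a1: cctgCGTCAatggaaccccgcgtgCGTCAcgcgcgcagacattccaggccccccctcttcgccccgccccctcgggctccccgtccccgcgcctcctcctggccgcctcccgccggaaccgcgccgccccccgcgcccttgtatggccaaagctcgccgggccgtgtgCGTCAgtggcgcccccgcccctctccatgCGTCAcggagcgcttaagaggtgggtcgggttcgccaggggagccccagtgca
Junb: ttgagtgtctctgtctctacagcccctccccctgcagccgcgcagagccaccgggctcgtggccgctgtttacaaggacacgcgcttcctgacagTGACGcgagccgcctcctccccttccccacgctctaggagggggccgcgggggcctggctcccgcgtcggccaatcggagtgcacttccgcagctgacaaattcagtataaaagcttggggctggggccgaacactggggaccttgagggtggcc
Ier2: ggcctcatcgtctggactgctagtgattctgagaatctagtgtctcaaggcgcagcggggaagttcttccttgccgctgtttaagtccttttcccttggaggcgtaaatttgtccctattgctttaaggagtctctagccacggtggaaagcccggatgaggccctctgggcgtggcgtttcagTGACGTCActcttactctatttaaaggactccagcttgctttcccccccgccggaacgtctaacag

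Nr4a1 held 4 matches to the core, at 246, 226, 82 and 53 bases before the start as counted at the first base of each match. Junb held 1 match at 155 bases. Ier2 held the full palindrome TGACGTCA from 66 to 59 bases before the start, which counts as 2 overlapping matches to the core. Of 33469 RefSeq promoters, 18.2% held the core and 1.59% the palindrome on either strand within these 250 bases. The promoter table held 6 of the 10 genes (Nr4a1, Nr4a2, Fosb, Junb, Egr1 and Ier2), and 5 of the 6 held the core. Nr4a2 and Egr1 held it too and gave no call by the main test below. Jun and Fos gave calls but had no promoter entry. Egr1 alone among the 6 held the CArG box, with 2 matches, against 1.5% of all promoters. The estrogen response element was found in 0 of the 6 and in 0.0239% of all promoters, and the NR4A site AAAGGTCA in 0 of the 6 and in 1.24%. The AP-1 site TGANTCA was found in 0 of the 6 and in 6.34% of all. A match says only that these letters are present in this window. For Nr4a1, Nr4a2 and Fosb the window lies inside the annotated gene, so the bases before the annotated gene were not read.

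AI+E2 had the highest mean of the 4 groups for 8 of the 9 genes measured, and Atf3 was the exception. Against AI, Nr4a1 and Junb rose in AI+E2, by 2.62-fold and 1.50-fold. Against VEH, Nr4a1, Junb and Jun rose in AI+E2, by 2.08-fold, 1.41-fold and 1.55-fold. Jun was the only one of the 9 that passed the test in AI against VEH, and it rose 1.38-fold. The calls of Nr4a1 and Junb against AI were also made by the methods' t-test with Benjamini-Hochberg adjustment, which called Nr4a2 and Ier2 there as well. That test called 0 of the 9 in AI+E2 against VEH and 0 in AI against VEH. Values are log2 values after RMA normalization, in which 1 unit is a doubling, and levels are compared between groups of the same gene, never between genes. The words rose and fell are used of genes with a limma p under 0.05 after Benjamini-Hochberg adjustment over all 14506 genes.

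**Figure D1:**
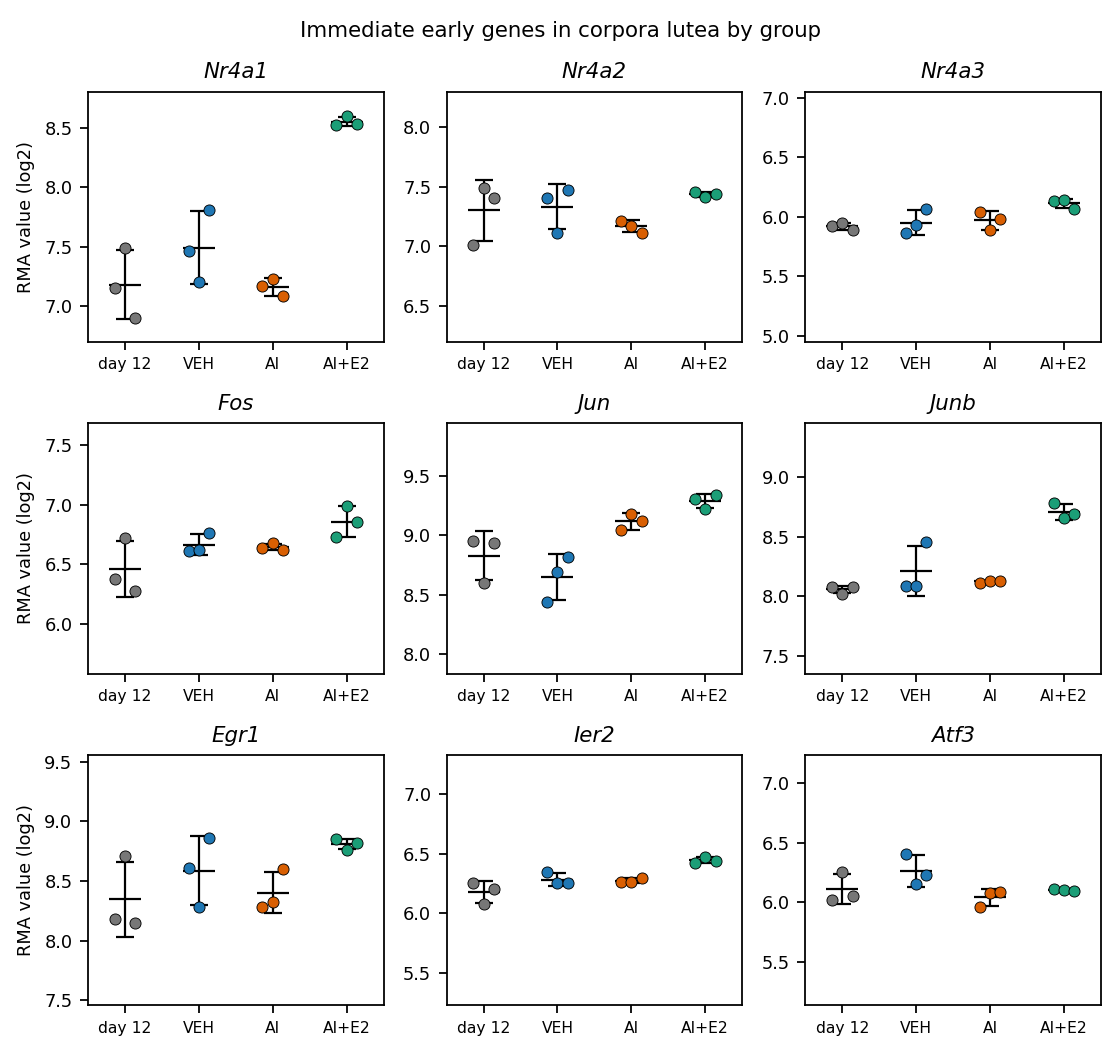
Log2 RMA value (vertical axis) of each of the 9 genes in the 4 groups (horizontal axis). Points are the 3 rats of a group and bars are the mean ± SD, and each panel spans the same range of log2 units. The AI+E2 values of Nr4a1, at 8.52 to 8.60, lie above the 9 other arrays, of which the highest is 7.81.

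Among the NR4A receptors, Nr4a1 gave the largest differences of the 9 genes in AI+E2 against each of the other 3 groups. Its log2 values were 7.15, 7.49 and 6.90 on day 12, 7.46, 7.20 and 7.81 in VEH, 7.17, 7.23 and 7.08 in AI, and 8.52, 8.60 and 8.53 in AI+E2. The 3 AI+E2 values were above all 9 others, and the other groups overlapped each other. The means were 7.18 ± 0.29, 7.49 ± 0.31, 7.16 ± 0.074 and 8.55 ± 0.041 (SD, n = 3 each). AI+E2 exceeded AI by 1.39 log2 units (SE 0.14, 95% interval 1.10 to 1.69, adjusted p by limma 5.58e-06), VEH by 1.06 (adjusted p by limma 9.28e-05) and day 12 by 1.37 (adjusted p by limma 9.56e-06). AI lay 0.33 log2 units below VEH and was not called (adjusted p by limma 0.128). Without VEH replicate 2, the lowest of the VEH arrays, this difference was -0.48 and was called (adjusted p by limma 0.0268). Leaving out that array widens the difference by construction, so the gained call is no support for it. The methods' t-test did not call the differences from VEH (adjusted p by that test 0.0700) and day 12 (0.0508). In the order of levels, AI+E2 and VEH passed the test as neighbours, and VEH and day 12, and day 12 and AI, did not.

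Nr4a2, best known as a factor of dopamine neurons, gave no call by the limma test used for rose and fell. Its log2 values were 7.01, 7.49 and 7.41 on day 12, 7.41, 7.11 and 7.47 in VEH, 7.21, 7.17 and 7.11 in AI, and 7.45, 7.41 and 7.44 in AI+E2. All AI+E2 values were above all AI values, by 0.27 log2 units in the mean (95% interval 0.037 to 0.50, adjusted p by limma 0.133). This difference was called by the methods' t-test with adjustment. Nr4a3, the third receptor, had values of 5.92, 5.95 and 5.89 on day 12, 5.86, 5.93 and 6.07 in VEH, 6.04, 5.89 and 5.98 in AI, and 6.13, 6.14 and 6.07 in AI+E2. AI+E2 was again above AI on all arrays, by 0.15 log2 units (95% interval 0.0082 to 0.28, adjusted p by limma 0.174). The mean of Nr4a3 over all arrays, 5.99, was at or above that of 27.6% of genes, so its differences rest on dim signal. The same limit holds for Atf3, at or above 31.0% of genes, and Ier2, at or above 35.2%. Against VEH, Nr4a3 was higher in AI+E2 by 0.16 (adjusted p by limma 0.125), and by 0.22 without VEH replicate 3, which was called (adjusted p by limma 0.0430). That array was the highest of VEH, so leaving it out widens the difference by construction.

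Jun and Junb are AP-1 subunits, and Jun rose in AI and in AI+E2 against VEH, while Junb rose in AI+E2 against AI and against VEH. Jun had log2 values of 8.95, 8.60 and 8.94 on day 12, 8.44, 8.69 and 8.82 in VEH, 9.05, 9.18 and 9.12 in AI, and 9.30, 9.22 and 9.34 in AI+E2. All AI arrays were above all VEH and all day 12 arrays, and all AI+E2 arrays were above all AI arrays. AI exceeded VEH by 0.47 log2 units (SE 0.10, 95% interval 0.25 to 0.68, adjusted p by limma 0.00416). AI+E2 exceeded VEH by 0.64 (adjusted p by limma 5.00e-04) and day 12 by 0.46 (adjusted p by limma 0.00692), while AI+E2 and AI differed by 0.17 (95% interval -0.045 to 0.39, adjusted p by limma 0.331). The methods' t-test did not call Jun in AI against VEH (adjusted p by that test 0.133), in AI+E2 against VEH (0.0814) or in AI+E2 against day 12 (0.162). In its order of AI+E2, AI, day 12 and VEH no pair of neighbours passed the test after adjustment, and AI lay 0.29 log2 units above day 12 (95% interval 0.070 to 0.50, adjusted p by limma 0.115).

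Junb had log2 values of 8.07, 8.02 and 8.07 on day 12, 8.09, 8.09 and 8.45 in VEH, 8.11, 8.13 and 8.12 in AI, and 8.78, 8.65 and 8.69 in AI+E2. The AI+E2 arrays were above all others, and VEH replicate 3 stood above the other VEH arrays. AI+E2 exceeded AI by 0.58 log2 units (SE 0.083, 95% interval 0.41 to 0.76, adjusted p by limma 1.75e-04), VEH by 0.50 (adjusted p by limma 7.40e-04) and day 12 by 0.65 (adjusted p by limma 8.47e-05). The methods' t-test called the differences from AI and day 12 and not that from VEH (adjusted p by that test 0.143). AI and VEH differed by -0.086 (95% interval -0.26 to 0.091, adjusted p by limma 0.553).

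Fos, the partner of the Jun proteins, had log2 values of 6.38, 6.73 and 6.28 on day 12, 6.61, 6.62 and 6.77 in VEH, 6.64, 6.68 and 6.62 in AI, and 6.73, 6.99 and 6.85 in AI+E2. VEH and AI overlapped and differed by -0.018 log2 units (adjusted p by limma 0.931). AI+E2 lay 0.21 above AI (95% interval 0.0032 to 0.42, adjusted p by limma 0.196). Fos rose in AI+E2 against day 12, by 0.40 (SE 0.098, adjusted p by limma 0.0136). That call was lost by the methods' t-test (adjusted p by that test 0.266), without day 12 replicate 1 (0.36, adjusted p by limma 0.0632), without day 12 replicate 3 (0.31, adjusted p by limma 0.0598) and without AI+E2 replicate 2 (0.33, adjusted p by limma 0.0671).

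Egr1, a zinc finger factor that growth factors and gonadotropins induce, varied widely among rats. Its log2 values were 8.18, 8.71 and 8.15 on day 12, 8.61, 8.28 and 8.86 in VEH, 8.28, 8.32 and 8.60 in AI, and 8.85, 8.76 and 8.82 in AI+E2. AI+E2 was above AI on all arrays by 0.41 log2 units (95% interval 0.092 to 0.73, adjusted p by limma 0.0905), while VEH replicate 3 lay above all AI+E2 arrays. Against day 12 the difference was 0.46 (adjusted p by limma 0.0554), and without day 12 replicate 2 it was 0.65 and was called (adjusted p by limma 0.0033). That array was the highest of day 12, so leaving it out widens the difference by construction.

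Ier2, a nuclear early response protein, had log2 values of 6.25, 6.08 and 6.20 on day 12, 6.34, 6.25 and 6.25 in VEH, 6.26, 6.26 and 6.30 in AI, and 6.43, 6.48 and 6.44 in AI+E2. The AI+E2 arrays were above all others. Ier2 rose in AI+E2 against day 12 by 0.27 log2 units (SE 0.058, adjusted p by limma 0.00629), which the methods' t-test did not call (adjusted p by that test 0.104). Against AI the difference was 0.17 (95% interval 0.047 to 0.30, adjusted p by limma 0.0698). This difference was called by the methods' t-test with adjustment, and by limma when each array was centred on its median. Atf3, a stress-induced repressor, had values of 6.02, 6.25 and 6.05 on day 12, 6.41, 6.15 and 6.22 in VEH, 5.96, 6.08 and 6.08 in AI, and 6.11, 6.10 and 6.09 in AI+E2. It was the only member highest in VEH, and all AI arrays were below all VEH arrays, by 0.22 log2 units in the mean (95% interval of AI minus VEH -0.38 to -0.057, adjusted p by limma 0.0635). That difference was called when arrays were centred (-0.25) and without VEH replicate 2 (-0.28, adjusted p by limma 0.0369). VEH replicate 2 was the lowest of VEH for Atf3, so leaving it out widens the difference by construction.

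**Figure D2:**
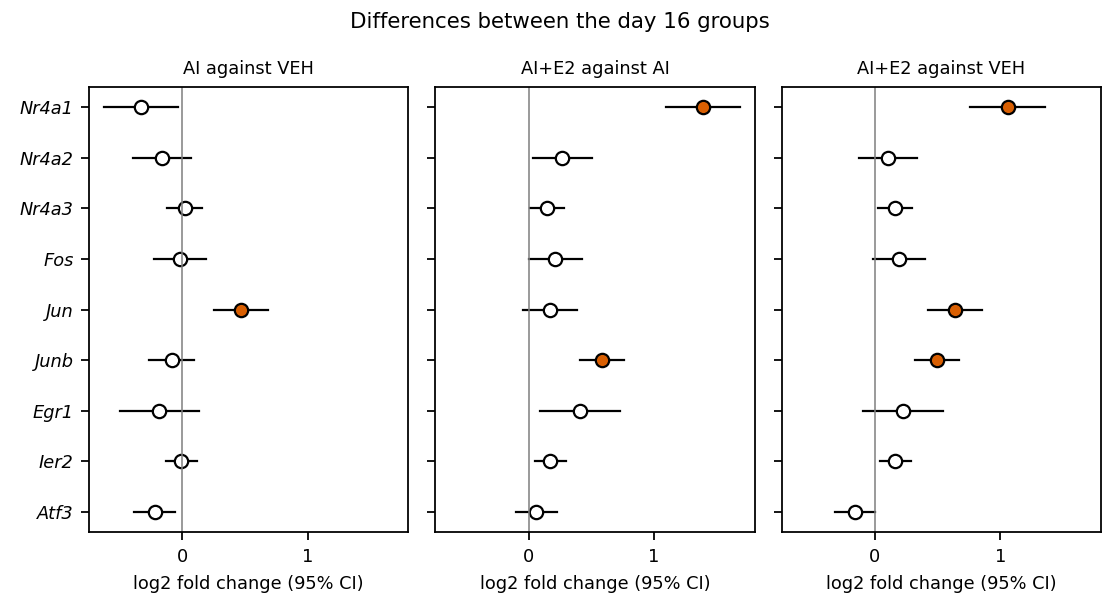
Log2 fold change (horizontal axis) of each of the 9 genes in 3 comparisons on day 16. Points are fitted differences and lines are 95% intervals, with filled points for adjusted p under 0.05. In AI+E2 against AI all 9 points lie above 0, from 0.062 for Atf3 to 1.39 for Nr4a1.

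By count, 1 of the 9 genes rose and 0 fell in AI against VEH, where 5.91% of all genes rose and 11.0% fell. At an unadjusted p under 0.05, 3 of the 9 differed in that comparison, as did 27.7% of all genes. With E2 given back, AI+E2 against AI, 2 rose and 0 fell, against 8.65% and 4.13% of all genes, and 7 of the 9 had an unadjusted p under 0.05, as had 24.3% of all genes. For AI+E2 against VEH, 3 rose and 0 fell, against 6.11% and 6.90%, and 5 had an unadjusted p under 0.05, as had 23.8% of all genes. The median differences of the 9 genes in these comparisons were -0.086, 0.21 and 0.19 log2 units, and those of all genes were 0.013, -0.022 and -0.0064. By the methods' t-test with adjustment, 0 of the 9 were called in AI against VEH, 4 in AI+E2 against AI (Nr4a1, Nr4a2, Junb and Ier2) and 0 in AI+E2 against VEH, where that test called 4.57%, 5.23% and 3.89% of all genes. Unadjusted, it gave 1, 8 and 4 of the 9, and 22.1%, 22.5% and 20.5% of all genes. The 3 comparisons share arrays, so their counts are not independent of each other.

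The arrays of AI+E2 lay above all arrays of AI for 9 of the 9 genes, as they did for 16.4% of all genes, while 15.0% of all genes lay wholly below. This count was added after the values had been seen. For AI+E2 against VEH, the groups did not overlap for 5 genes above and 1 below, against 13.6% and 15.7% of all genes. In AI against VEH this held for 1 gene above, Jun, and 1 below, Atf3, against 14.3% and 17.2%. An exact permutation test of 3 against 3 arrays cannot give a p under 0.1, so no such test was made for single genes.

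Against day 12, 0 of the 9 genes passed the test in VEH, where 6.91% of all genes rose and 3.23% fell, and 1 of the 9 and 22.8% of all genes had an unadjusted p under 0.05. In AI against day 12, again 0 of the 9 passed by limma, against 3.30% and 4.27% of all genes, and 1 of the 9 and 18.5% of all genes had an unadjusted p under 0.05. For AI+E2 against day 12, Nr4a1, Fos, Jun, Junb and Ier2 rose and 0 fell, 5 of 9, where 7.52% of all genes rose and 4.58% fell. The methods' t-test with adjustment called 0, 0 and 1 (Junb) of the 9 in VEH, AI and AI+E2 against day 12, and 0.393%, 0.310% and 2.50% of all genes. Unadjusted, it gave 0, 1 and 5 of the 9, and 15.5%, 13.3% and 20.7% of all genes. The median of the 9 genes was 0.40 log2 units in AI+E2 against day 12, beside 0.15 in VEH and 0.055 in AI. Day of pregnancy and treatment both differ between these groups and cannot be told apart. Without day 12 replicate 2, Nr4a1 and Fos were called in VEH (0.46 and 0.34, adjusted p by limma 0.0331 and 0.0134) and Fos was called in AI (0.32, adjusted p by limma 0.0228). That array was the highest of day 12 for both genes, so leaving it out widens these differences by construction.

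The spread among rats differed between groups for these genes. The median SD of the 9 genes was 0.20 on day 12, 0.19 in VEH, 0.068 in AI and 0.041 in AI+E2, where the medians over all genes were 0.085, 0.079, 0.075 and 0.065. The difference in spread was not tested. Over all groups the residual SD of Egr1, 0.23, was at or above that of 98.8% of genes, and that of Nr4a1, 0.22, at or above that of 98.4%. Ier2 was among the steadier genes, with an SD of 0.055.

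Within groups, several of the genes deviated together in single rats. VEH replicate 3 was above its group mean for 7 of the 9 genes, by 0.32 for Nr4a1, 0.28 for Egr1 and 0.24 for Junb, and VEH replicate 2 was above it for 1. Day 12 replicate 2 was above its group mean by 0.37 for Egr1, 0.30 for Nr4a1 and 0.26 for Fos and below it by a deviation of -0.23 for Jun. Over 12 arrays the deviations of Nr4a1 correlated with those of Egr1 and of Fos at r = 0.80 each. Over all 36 pairs the median r was 0.25, from -0.73 to 0.80. These points share arrays and group means, and r is given as a description.

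**Figure D3:**
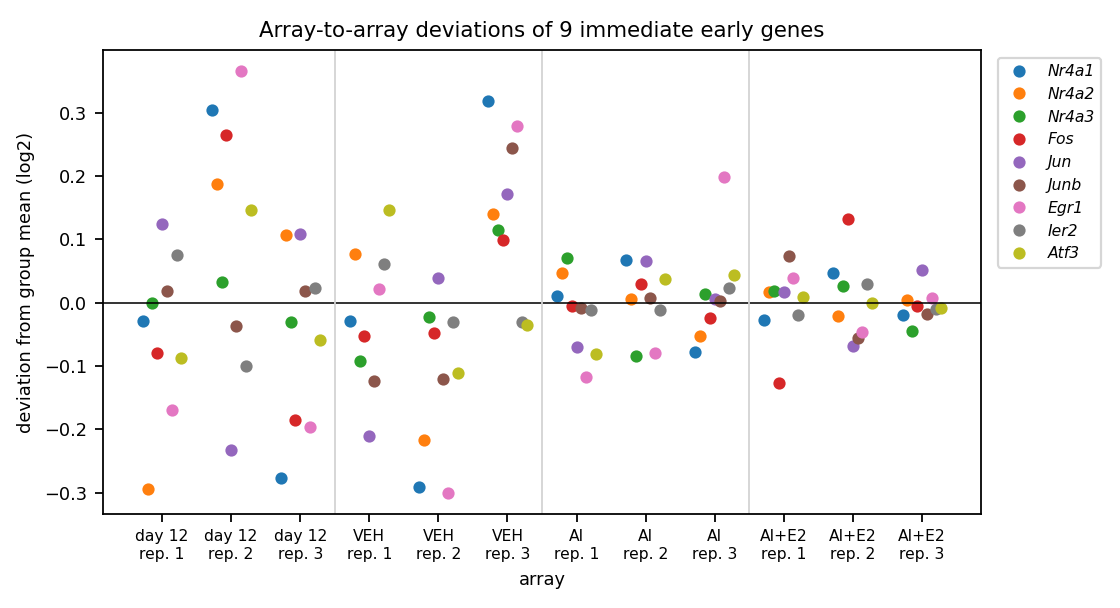
Deviation of each of the 9 genes from its group mean in log2 units (vertical axis) on each of the 12 arrays (horizontal axis). Each colour is a gene. The points spread widely in day 12 and VEH, up to 0.37, and lie close to 0 in AI+E2, apart from Fos at -0.13 and 0.13.

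The genes most like each member over the 12 arrays were found by Pearson's r, and the groups' differences enter this r. For Nr4a1 these were Homer2 (r = 0.960), a scaffold protein of receptor signalling, Rgs2 (0.958), a regulator of G protein signalling, and Csn1s1 (0.958), a milk casein gene. For Junb they were Rgs2 (0.974), Cdc14a (0.951) and Csn1s1 (0.950). For Jun they were Mob4 (0.961), Zfp347 (0.943) and Amotl2 (0.935), and for Ier2 Pofut2 (0.948), Rasd1 (0.942) and Atp5pb (0.940). Nr4a3 had Junb among its closest 3 (0.861), after Tas1r1 (0.888) and Cyp4b1 (0.881). For Nr4a2, Fos, Egr1 and Atf3 the closest were Rbfox1 (0.847), Ralgdsl3 (0.885), Stk32b (0.907) and Mpp3 (0.937).

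Other immediate early genes were read as a list of 42, of which 41 were measured. Between AI and AI+E2, 4 of the 41 (9.76%) were higher and 2 (4.88%) lower in AI+E2 by the test, near the 8.65% and 4.13% of all genes, so these counts set the list apart from other genes in neither direction. Rgs2, at 6.96, 7.03 and 6.93 in AI and 8.07, 7.89 and 8.17 in AI+E2, rose by 1.07 log2 units (SE 0.12, adjusted p by limma 1.56e-05). Nfil3, a basic leucine zipper repressor, rose by 0.63, Ier3 by 0.34 and Klf6 by 0.27, while Jund, the third Jun protein, fell by 0.31 and Ccn1, a matricellular protein, fell by 0.39. In AI against VEH, 4 rose (9.76%) and 5 fell (12.2%), where 5.91% and 11.0% of all genes did. Those that fell included Plk2, a kinase (-0.82), Gadd45b, a stress sensor (-0.60), and Trib1 (-0.32), and those that rose included Csrnp1 (0.30). Between AI+E2 and VEH, 8 rose (19.5%) and 5 fell (12.2%), where 6.11% and 6.90% of all genes did. The medians of the 41 genes in these comparisons were 0.015, 0.027 and 0.041. Against day 12, 5 rose in VEH, 2 in AI and 7 in AI+E2 (12.2%, 4.88% and 17.1%), and 0 fell in each by limma. Of all genes, 6.91%, 3.30% and 7.52% rose there, and 3.23%, 4.27% and 4.58% fell.

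**Figure D4:**
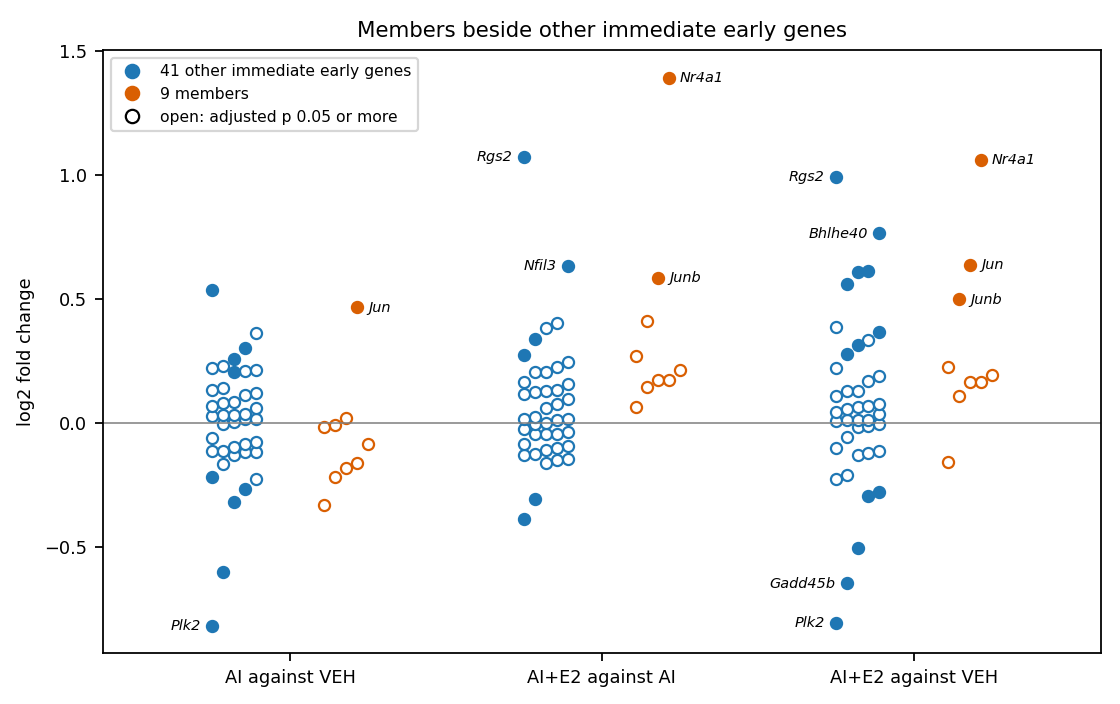
Log2 fold change (vertical axis) of 41 other immediate early genes (blue) and the 9 members (orange) in 3 comparisons on day 16 (horizontal axis). Filled points have an adjusted p under 0.05, and the larger called values are named. In AI+E2 against AI, Nr4a1 (1.39) and Rgs2 (1.07) lie above the rest of both lists.

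Genes that act upstream of the members, or on Egr proteins, were measured for 24 of 29. In AI against VEH, 3 rose (12.5%) and 2 fell (8.33%), beside 5.91% and 11.0% of all genes. In AI+E2 against AI, 0 rose and 2 fell (8.33%), beside 8.65% and 4.13% of all genes. Mapk14, the p38α kinase, fell in both, by 0.50 (adjusted p by limma 3.01e-04) and by 0.36 (adjusted p by limma 0.00608). Elk1, an SRF partner, rose in AI by 0.31 and fell in AI+E2 against AI by 0.24. Elk3, another, was lower in AI than in VEH (-0.46), and Nab1, a corepressor of Egr proteins, was higher (0.46). Between AI+E2 and VEH, 1 of the 24 rose, Nab1 by 0.74, and 2 fell, Mapk14 by 0.86 and Elk3 by 0.38. Of all genes, 6.11% rose and 6.90% fell there.

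Luteal steroid genes and receptors that are textbook neighbours of NR4A or AP-1 were measured for 9 of 10. In AI against VEH 5 rose and 1 fell, between AI+E2 and AI 2 rose and 1 fell, and in AI+E2 against VEH 4 rose and 0 fell. The shares of all genes in these comparisons were 5.91% and 11.0%, 8.65% and 4.13%, and 6.11% and 6.90%. Akr1c3, the symbol that the annotation gives to that progesterone-degrading dehydrogenase, had log2 values of 8.98, 9.95 and 8.96 on day 12, 6.23, 6.63 and 6.79 in VEH, 7.76, 8.10 and 8.67 in AI, and 10.70, 10.56 and 10.83 in AI+E2. It rose by 1.63 in AI against VEH (adjusted p by limma 2.03e-04) and by 2.52 in AI+E2 against AI (adjusted p by limma 4.28e-06). Cyp17a1, which makes androgens, rose by 4.48 in AI against VEH and fell by 3.41 in AI+E2 against AI. Akr1c3 has close relatives that may share its probes, so its identity is uncertain. Akr1c3 was lower in VEH than on day 12, by a difference of -2.75, where Nr4a1 differed by 0.31 and was not called (adjusted p by limma 0.191). Both genes rose in AI+E2 against AI, by 2.52 and 1.39, while in AI against VEH Akr1c3 rose and Nr4a1 was not called. A link between the levels of these genes was not tested. Star, which brings cholesterol into mitochondria, rose by 0.21 in AI against VEH (adjusted p by limma 0.0107). Ptgfr, the receptor of prostaglandin F2α, had values from 9.94 to 10.33 over the 12 arrays.

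Heat shock genes were measured for 10 of 12, since they mark stress of cells or tissue. Between AI+E2 and AI, 0 rose and 4 fell, with Hsp90aa1 at -0.44 and Dnaja1 at -0.42, while Dnajb1 lay 0.37 higher in AI+E2 on all arrays (adjusted p by limma 0.0816). Between AI and VEH 4 rose and 0 fell. In these comparisons 8.65% and 5.91% of all genes rose, and 4.13% and 11.0% fell. Between AI+E2 and VEH 3 rose, Hspd1, Hspe1 and Dnajb1 (0.54, 0.52 and 0.52), and 3 fell, Dnaja1, Hsp90aa1 and Hsph1 (-0.31, -0.31 and -0.21). Of all genes, 6.11% rose and 6.90% fell there.

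The tissue label was checked by luteal markers, of which 8 of 10 were measured. Their mean log2 level lay between 11.07 and 11.39 on all arrays, and 5 rose and 1 fell in AI against VEH, with 1 and 0 in AI+E2 against AI. Star, Cyp11a1, Hsd3b2, Lhcgr and Prlr were also in the list of steroid genes and receptors above, so those counts overlap. The mean level of 11 of 12 endothelial markers was 9.06 to 9.07 in VEH, 8.50 to 8.73 in AI and 8.66 to 8.71 in AI+E2. Of the 11, 9 (81.8%) fell in AI against VEH, beside 11.0% of all genes. That of the 14 macrophage markers was 8.07 to 8.17 in VEH, 8.18 to 8.34 in AI and 8.34 to 8.39 in AI+E2, with 4 that rose and 0 that fell in AI against VEH and 2 that rose and 1 that fell in AI+E2 against AI. That of 9 of 10 lymphocyte markers was 6.39 to 6.52 in AI and 6.57 to 6.59 in AI+E2, with 2 that rose and 0 that fell. That of 4 of 5 red blood cell markers was 7.98 to 8.25 in AI and 7.40 to 7.48 in AI+E2, with 0 that rose and 2 that fell. Of 10 smooth muscle and pericyte markers 3 fell in AI against VEH and 0 changed by limma in AI+E2 against AI. Of 8 fibroblast markers and of 7 of 8 granulosa and oocyte markers, 1 of each list rose in each of these comparisons and 0 fell. In AI+E2 against VEH, 5 macrophage markers rose and 0 fell, 0 endothelial rose and 7 fell, 2 lymphocyte rose and 0 fell, 0 red blood cell rose and 3 fell, 0 smooth muscle rose and 3 fell, 4 fibroblast rose and 3 fell, 3 luteal rose and 0 fell, and 2 granulosa and oocyte rose and 0 fell. Of all genes, 6.11% rose and 6.90% fell there. Against day 12, 5 members rose in AI+E2, where 7.52% of all genes rose and 4.58% fell. In that comparison 7 macrophage markers rose and 0 fell, and 3 lymphocyte markers rose and 0 fell. Other cell lists changed there too. Higher in AI+E2 by limma were 2 fibroblast, 2 granulosa and oocyte, and 1 smooth muscle and pericyte marker, with 0 lower in each. Of the luteal markers 1 was higher and 1 lower. For red blood cells 1 marker was lower and 0 higher, and for endothelium 0 changed by limma. The part of these cells in the results for Nr4a1, Junb and Jun was not tested.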

How the data were processed

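RNA of CL from 12 rats, 3 in each of 4 groups, was hybridised to Affymetrix Rat Gene ST arrays (1 for each rat). The log2 values deposited by the authors, for 29214 probe sets, had been made by RMA with R 2.12.2, per the submitters' processing notes. RMA corrects the background, equalises the arrays and summarises probes, and it can compress large differences. No source used here says which arrays entered 1 RMA run. The medians of the arrays were 6.51 to 6.56, 0 values were missing and 0 pairs of arrays were identical. The number of arrays limits the precision.

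The platform annotation gave 1 symbol to 15310 probe sets, several to 323 and none to 13581. Of the named probe sets, 15279 had an identifier found in RefSeq. For the 527 genes with several probe sets, the one with the highest mean was used, which left 14506 genes, with no filter on dim genes. The lmFit and eBayes functions of limma 3.58.1 (R 4.3.3) were run on all 12 arrays with 1 mean per group, which left 8 residual degrees of freedom. A call needed an adjusted p under 0.05 and no fold threshold. The fit was tested on simulated data with independent errors and 1 SD per gene in all groups. The members' spread differed between groups and their deviations correlated, so the simulation does not cover that case. Promoters were read from RefSeq (GRCr8), from 250 bases before the start to it. Figures were drawn with matplotlib 3.10.9 in Python 3.11.15.

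Members and lists were chosen with earlier results of these data known. Named genes were the members, up to 4 called genes with the smallest p of each list and comparison, the 3 genes most correlated with each member, and Akr1c3, Star and Ptgfr. Alternatives were other probe set rules, filters on dim genes, all probe sets, only the compared arrays, the methods' t-test, a trended prior, further normalization, the replicate number as a block and each array left out. No batch is named in the labels.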

Additional observations from a re-analysis of the deposited data

How the results depend on the processing

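Of 516 values of members under settings that kept all arrays, 488 kept their direction and side of the threshold, 8 lost a call, 16 gained one and 4 changed sign. Of 324 values with 1 array left out, these numbers were 296, 3, 7 and 18, and every value that changed sign was uncalled. In AI+E2 against AI, 5 members were called when only the arrays of both groups were fitted, and 4 after a second quantile normalization. In AI against VEH, 2 were called after quantile normalization and 2 after centring on the medians. Shares of all genes were not computed for these settings, nor below with an array left out or with the replicate block. These counts therefore cannot be set against calls over all genes. By the methods' t-test with Benjamini-Hochberg adjustment, which called 4.57%, 5.23%, 3.89% and 2.50% of all genes, 0 were called in AI against VEH, 4 in AI+E2 against AI, 0 in AI+E2 against VEH and 1 in AI+E2 against day 12. At an unadjusted p under 0.05 that test gave 1, 8, 4 and 5 members, and 22.1%, 22.5%, 20.5% and 20.7% of all genes. With the 50% of genes of lowest mean left out, 5 members were tested.

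With each array left out in turn, 1 to 3 members were called in AI against VEH (3 without VEH replicate 2), 2 to 2 in AI+E2 against AI, 3 to 4 in AI+E2 against VEH, 0 to 2 in VEH against day 12 and 0 to 1 in AI against day 12 (2 and 1 without day 12 replicate 2), and 4 to 6 in AI+E2 against day 12. The cause of these shifts was not tested.

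The values that changed sign lay near 0. Nr4a3 in AI against VEH was -0.017 after quantile normalization and -0.0080 after centring, and Atf3 in AI+E2 against day 12 was 0.029 and 0.020. With 1 array left out, AI against VEH ranged from -0.029 to 0.075 for Nr4a3, -0.023 to 0.023 for Ier2, -0.044 to 0.032 for Fos and -0.15 to 0.036 for Junb. VEH against day 12 ranged from -0.12 to 0.14 for Nr4a2 and -0.026 to 0.078 for Nr4a3. AI against day 12 ranged from -0.16 to 0.13 for Nr4a1, -0.044 to 0.24 for Egr1 and -0.11 to 0.0059 for Atf3. AI+E2 against day 12 ranged from -0.012 to 0.23 for Nr4a2 and -0.049 to 0.068 for Atf3, and AI+E2 against VEH from -0.0021 to 0.18 for Nr4a2.

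Between samples with the same replicate number, the r of deviations over 18 pairs ran from -0.49 to 0.34, with 4 over 0.1. With 3 arrays a group, this cannot settle whether the replicate number marks a pairing. With the replicate block, 1, 2, 3, 0, 0 and 5 members were called for AI against VEH, for AI+E2 against AI, for AI+E2 against VEH, and for VEH, AI and AI+E2 against day 12, the counts of the fit without it.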
